A study of Mus musculus with 4 samples.

Results

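Antioxidant and glutathione genes are 43 genes chosen by name: the NRF2 regulator and its targets, the glutathione and thioredoxin enzymes, peroxidases, superoxide dismutases, metallothioneins and ferritins. A gene was measured where the platform annotation gave a probe set that symbol and no other, which held for 38 of the 43, or 38 of 12920 genes tested in all. Colonic and bone marrow mesenchymal stem cells (MSC) differed by no more than 0.13 on the log2 scale in the regulator pair Nfe2l2 and Keap1. The same held for the enzyme and ferritin genes Gpx4, Gstp1, Sod1 and Fth1, each read in its brightest probe set. Dimmer probe sets of Nfe2l2, Keap1, Gpx4 and Sod1 differed more. Glrx, a glutaredoxin, and the transferase gene Gstt1 lay below their bone marrow values in both colonic lines, and the catalase gene Cat and the sulfiredoxin gene Srxn1 lay above them. None of these differences passed the test over all genes, and many of the widest differences were between lines of the same tissue.

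MSC are stromal cells grown from a tissue by their attachment to plastic, known for giving rise to bone, fat and cartilage. The study compared 2 colonic MSC lines, from flushed colon, with 2 bone marrow MSC lines, with 1 Affymetrix mouse array per line. All lines came from C57BL/6 mice with no treatment or engineered allele named, were freed from tissue with collagenase type I and selected on plastic, kept in DMEM of low glucose that held 10% serum, and used for RNA at passages 5 to 10. The labels call the arrays of a tissue biological replicates, and do not state the age, the sex or the number of mice behind a line. A line is a passaged culture from its tissue, which limits it as a model of the cells in place.

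NRF2, encoded by Nfe2l2, is a transcription factor that Keap1 marks for breakdown in resting cells. Oxidants and electrophiles modify Keap1, NRF2 then accumulates, and it binds antioxidant response elements beside genes for glutathione synthesis, quinone reduction and thiol repair. Glutathione and thioredoxin carry the electrons with which peroxidases remove hydrogen peroxide and lipid peroxides, and glutathione transferases couple glutathione to reactive compounds. Metallothioneins bind zinc and copper through cysteines and are switched on by the metal sensor MTF1 at metal response elements.

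Promoter windows of 300 bases, from 250 before to 50 after the annotated start, were given by RefSeq (GRCm38.p6) for 36 of the 43 genes, in 45 windows. The core of the antioxidant response element, TGACNNNGC on either strand, was found in 10 of these 45 windows (22.2%), against 4071 of all 32851 windows (12.4%). The 10 windows belonged to Nfe2l2, Srxn1, Gstm5, Gclm, Prdx1, Mgst1, Mt2, Txnrd1, Sod1 and G6pdx, with 1 match each. In 2 of the 10 the core overlapped the AP-1 site TGANTCA. That site was found in 9 of the 45 windows (20.0%), against 7.81% of all windows. The metal response element core, TGCNCNC on either strand, was found in 21 of the 45 windows (46.7%), against 51% of all windows, so these short letters are common. Mt1 held 3 such cores and Mt2 held 6, and 3 or more occurred in 7.1% of all windows. A match describes the letters and was not tested as a binding site.

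The windows of Mt1 and Mt2 are shown because these neighbouring genes had the same order of arrays in the data, with the metal response element cores in capitals. They lie at chr8:94178839-94179118 and chr8:94172368-94172647 on the plus strand of GRCm38.p6, printed 5′ to 3′ to 30 bases past the annotated start.
Mt1: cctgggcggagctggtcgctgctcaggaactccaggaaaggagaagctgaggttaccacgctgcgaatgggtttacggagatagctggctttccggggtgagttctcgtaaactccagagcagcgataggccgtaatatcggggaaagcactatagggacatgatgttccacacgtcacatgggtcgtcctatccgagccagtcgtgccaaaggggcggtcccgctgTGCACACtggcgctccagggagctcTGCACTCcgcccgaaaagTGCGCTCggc
Mt2: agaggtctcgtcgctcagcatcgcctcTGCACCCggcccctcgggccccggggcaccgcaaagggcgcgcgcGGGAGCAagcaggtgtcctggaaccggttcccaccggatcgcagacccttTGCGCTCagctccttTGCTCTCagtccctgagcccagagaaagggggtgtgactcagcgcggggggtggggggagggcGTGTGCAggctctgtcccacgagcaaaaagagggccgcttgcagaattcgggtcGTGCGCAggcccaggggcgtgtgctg

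Gclm, the modifier subunit of the enzyme that starts glutathione synthesis, and Gstm5, a mu class transferase, are shown as carriers of the antioxidant response element core, which is in capitals. They lie at chr3:122245307-122245586 and chr3:107895604-107895883, also on the plus strand, and the core begins at position -134 in Gclm and -42 in Gstm5, counted from the annotated start.
Gclm: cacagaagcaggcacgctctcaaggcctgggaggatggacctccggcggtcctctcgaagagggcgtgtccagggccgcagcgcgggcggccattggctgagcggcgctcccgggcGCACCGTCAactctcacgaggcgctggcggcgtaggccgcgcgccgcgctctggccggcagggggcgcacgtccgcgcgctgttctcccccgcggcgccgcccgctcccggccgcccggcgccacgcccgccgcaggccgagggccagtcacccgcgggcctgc
Gstm5: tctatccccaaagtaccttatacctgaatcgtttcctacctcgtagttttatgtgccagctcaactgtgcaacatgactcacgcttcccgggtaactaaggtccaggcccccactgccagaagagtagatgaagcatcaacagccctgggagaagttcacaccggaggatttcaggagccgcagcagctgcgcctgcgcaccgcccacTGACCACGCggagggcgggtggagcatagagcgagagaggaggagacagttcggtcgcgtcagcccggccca

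Of the other 5 listed genes, Prdx1 and Ftl1 had only probe sets that the annotation gives to several symbols, and Prdx5, Prdx6 and G6pdx are not analysed here. The 38 measured genes had 72 probe sets, of which 66 passed the filter on low values, and each gene was represented by its brightest one. All 38 passed that filter, which is set on the mean of the 4 arrays, so a gene that is bright in a single line could pass. Intensities have no fixed unit and are compared only within a probe set.

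Before the results, 2 features of the lines bear on them. The X-inactivation transcript Xist had 2396 in colonic replicate 2 against at most 39.8 on the other 3 arrays, and the Y-linked Eif2s3y had 11 there against at least 1656, so this line differed in sex-linked transcripts from the other 3. Bone marrow replicate 2 and colonic replicate 1 were the least alike arrays (r = 0.953 across probe sets, which are no independent samples), against 0.973 for the bone marrow lines and 0.967 for the colonic lines. Colonic replicate 2 and bone marrow replicate 1 had r = 0.971, above the colonic pair. The remaining pairs across tissues had 0.966 (bone marrow replicate 2 with colonic replicate 2) and 0.965 (bone marrow replicate 1 with colonic replicate 1). Median intensities were between 53.7 and 55.7.

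The 9 measured stromal markers, among them Vim, Col1a1 and Col1a2, summed to 62571 and 62469 in colonic lines and to 63796 and 58274 in bone marrow lines. Without overlap, colonic lines lay above in 3 of the 9 and below in 2, beside 18.4% and 15.1% of all genes. Below were Pdgfra, with 492 and 743 against 1609 and 2493, and Pdgfrb, with 3377 and 3844 against 5042 and 4686. Among those above were Cd44, with 8532 and 6512 against 6043 and 4867, and Itgb1, with 7839 and 6346 against 5396 and 5338. Macrophage markers (10 of 10 measured, 6 past the filter) summed to 1850 and 2935 in colonic lines and to 2895 and 1155 in bone marrow lines. Ptprc and Adgre1 were at 32.1 or less on every array, but Cd14 was between 573 and 963 on all 4, and Lyz2 reached 1589 in bone marrow replicate 1. Cd53, a leukocyte membrane protein, had 155 and 1333 in colonic lines and 14.0 and 15.7 in bone marrow lines, a difference of 4.07 ± 1.03 (SE, adjusted p = 0.593). Adipocyte markers (5 of 6 measured) summed to 664 in colonic replicate 1, 6710 in colonic replicate 2, and 6195 and 7986 in bone marrow lines, but different genes carried the sums. Lpl made up 6536 of the sum in colonic replicate 2. Fabp4 had 460 and 112 in colonic lines and 5157 and 4901 in bone marrow lines, and Cebpa had 18.3 and 35.1 against 872 and 631. These differences were -4.37 ± 0.69 (SE, adjusted p = 0.239) for Fabp4 and -4.26 ± 0.39 (SE, adjusted p = 0.077) for Cebpa, while Adipoq was at most 73.8. Smooth muscle markers (4 of 4 measured) summed to 26600 and 20817 in colonic lines and to 17479 and 7407 in bone marrow lines. Actg2 and Cnn1 carried most of these sums, and Cnn1 was 33.03 in bone marrow replicate 2 against 8477 or more on the other 3 arrays. Des and Myh11 were high in colonic replicate 1 alone, at 2379 and 1123, and at most 52.4 elsewhere. Intestinal epithelial markers (8 of 8 measured) summed to 3039 and 264 in colonic lines and to 6402 and 5332 in bone marrow lines, with Krt19 at 1890 and 105 against 6223 and 5083 and Epcam at 19.6 or less. Krt20 went the other way, with 889 and 29.1 in colonic lines and 29.4 and 15.9 in bone marrow lines, high in colonic replicate 1 alone. Endothelial (5 of 5) and erythroid (3 of 5) markers summed to at most 239 and 45.1 on any array, and Pecam1 was at most 2.48. No defining marker was listed at 0, and the part of cell type or sex in the results below was not tested. In such bulk samples fewer cells of a type and less RNA per cell cannot be told apart.

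The comparison asks in which antioxidant and glutathione genes colonic MSC differ from bone marrow MSC in the same medium. Differences are on the scale of log2(intensity + 13.7), colonic minus bone marrow, with standard errors (SE) and 95% intervals from limma. With p adjusted by Benjamini and Hochberg over 12920 genes, 0 of the 38 genes passed 0.05 in either direction, and 0% of all genes did. At an adjusted p below 0.1 there were still 0 of the 38, against 0.379% of all genes. The smallest adjusted p of the 38 was 0.491, for Glrx. At an unadjusted p below 0.05 there were 3 of the 38, namely Txn1 toward colon and Glrx and Gstt1 toward bone marrow, or 7.89% against 6% of all genes, which is near that background. Toward colon the share was 2.63% of the 38 and 3.3% of all genes, and toward bone marrow it was 5.26% and 2.7%. That count was 8 without bone marrow replicate 1, 2 without bone marrow replicate 2, 5 without colonic replicate 1 and 6 without colonic replicate 2.

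Without overlap between the tissues were 13 of the 38 genes (34.2%), against 33.5% of all genes, so the share was that of the background. Colonic lines lay above in 8 of them (21.1%, against 18.4% of all genes) and below in 5 (13.2%, against 15.1%). The difference was positive in 23 of the 38 (60.5%, against 51.5% of all genes). The median difference of the 38 genes was 0.13, beside 0.01 over all genes, and it was -0.05 without bone marrow replicate 2. The tissues were 2-fold or more apart in 12 of the 38 genes, or 31.6% against 9.02% of all genes. Colonic lines were higher in 7 of these (18.4% of the 38, against 5.52% of all genes) and lower in 5 (13.2%, against 3.51%). The 12 were Nqo1, Hmox1, Srxn1, Gstt2, Mgst1, Gpx3 and Gpx7 above, and Glrx, Gstt1, Mgst3, Sod3 and Mt2 below. In 6 of these 12, which were Nqo1, Gstt2, Mgst1, Gpx3, Sod3 and Mt2, the arrays of the tissues overlapped.

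**Figure D1:**
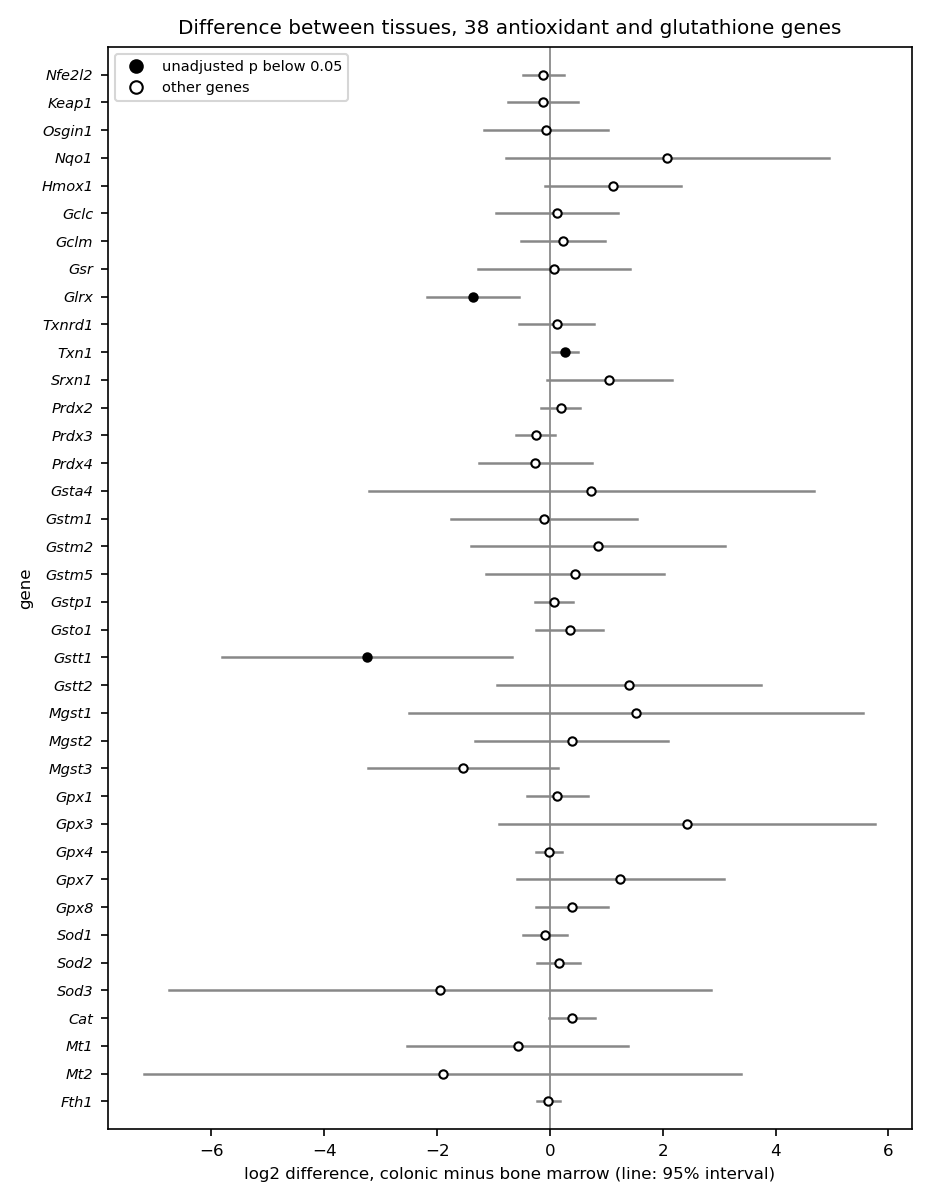
Log2 difference (colonic minus bone marrow) of each of the 38 genes, in order of role from regulators at the top to ferritin at the bottom, with points for the fitted difference and lines for its 95% interval. The intervals of Glrx, Gstt1 and Txn1 (filled points) leave out 0 before adjustment, and those of Mt2, Sod3, Mgst1, Gpx3 and Gsta4 are the widest.

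The genes grouped as regulators had small fitted differences between tissues, with wide intervals for Keap1 and Osgin1. Nfe2l2, the NRF2 gene, had intensities of 4388 and 4308 in colonic lines and 4547 and 4888 in bone marrow lines. Its difference was -0.12 ± 0.14 (SE, 95% interval -0.48 to 0.25), so its 4 arrays lay within 1.13-fold of each other. Keap1, the adaptor that presents NRF2 to a ubiquitin ligase, had 1578 and 1891 in colonic lines and 1934 and 1843 in bone marrow lines. These values overlapped, with a difference of -0.13 ± 0.23 (SE, 95% interval -0.74 to 0.49). The second, dim probe set of Keap1, at 47.5 and 80.3 against 45.8 and 36, had a difference of 0.48. Osgin1, grouped here with the regulators, is an NRF2 target that limits growth under oxidative stress. It had 193 and 169 in colonic lines and 257 and 140 in bone marrow lines. The difference of Osgin1 was -0.07 ± 0.42 (SE, 95% interval -1.17 to 1.04). Of the 3 genes of this group 0 passed the test, and 1, Nfe2l2, did not overlap between tissues, beside 33.5% of all genes.

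Nqo1 and Hmox1, 2 enzyme targets much used to read NRF2 activity, varied far more than Nfe2l2 itself. The range over the 4 arrays was 3.94-fold for Hmox1, against 1.48-fold for Gclm, 1.60-fold for Txnrd1, 2.07-fold for Gclc and 3.15-fold for Srxn1. Nqo1, a quinone reductase, had 2193 and 745 in colonic lines and 770 and 106 in bone marrow lines, a 20.7-fold range. Colonic replicate 1 was high and bone marrow replicate 2 low, and the middle values of the tissues overlapped. The difference of Nqo1 was 2.08 ± 1.08 (SE, adjusted p = 0.955), and it was 0.72 without bone marrow replicate 2. Hmox1, the oxygenase that opens heme into biliverdin, iron and carbon monoxide, had 4841 and 3247 in colonic lines and 2681 and 1228 in bone marrow lines. Both colonic lines lay above both bone marrow lines, with a difference of 1.12 ± 0.45 (SE, adjusted p = 0.853), which was 0.56 without bone marrow replicate 2. Of the 2 measured genes of this group, Nqo1 and Hmox1, 0 passed the test.

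**Figure D2:**
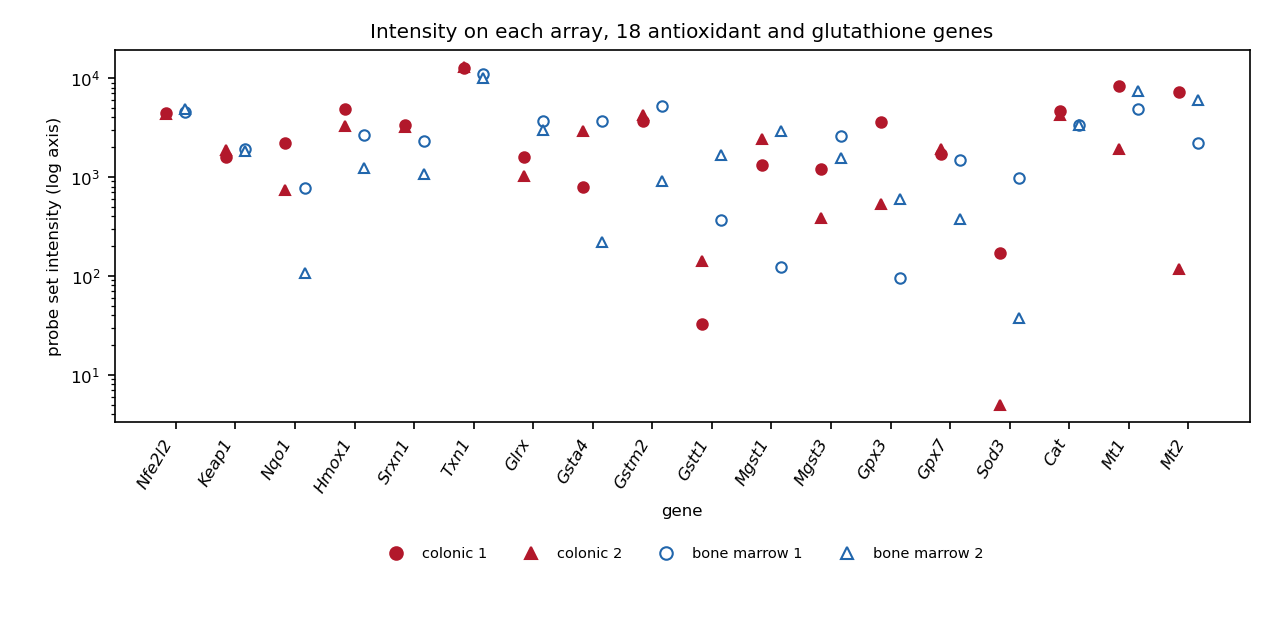
Probe set intensity (log axis) of 18 genes on each array, with filled red symbols for colonic lines and open blue symbols for bone marrow lines, circles for replicate 1 and triangles for replicate 2. Nfe2l2 and Keap1 hold together on all 4 arrays, Glrx, Gstt1 and Mgst3 lie lower in both colonic lines, and Mt2 in colonic replicate 2, at 118, lies far below the other 3 arrays.

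In glutathione synthesis and reduction the clearest gene was Glrx, which removes glutathione from protein thiols. Glrx had 1595 and 1017 in colonic lines and 3641 and 2982 in bone marrow lines. Every colonic value lay below every bone marrow value, and the second probe set had the same order, with 234 and 170 against 853 and 612. The difference was -1.36 ± 0.31 (SE, 95% interval -2.18 to -0.54, unadjusted p = 0.00878, adjusted p = 0.491), or 2.57-fold lower in colonic lines, and -1.79 in the second probe set. Gclc, the catalytic subunit of glutamate-cysteine ligase, had 1565 and 3237 in colonic lines and 2253 and 1898 in bone marrow lines. The colonic lines thus stood on either side of the bone marrow lines, with a difference of 0.12 ± 0.41 (SE) that was -0.40 without colonic replicate 2. Gclm, its modifier subunit, had 2046 and 1965 in colonic lines and 2075 and 1406 in bone marrow lines, a difference of 0.23 ± 0.28 (SE). Gsr, which returns oxidised glutathione to its reduced form, had 463 and 1013 in colonic lines and 539 and 786 in bone marrow lines, a difference of 0.07 ± 0.51 (SE). Of the 4 genes 0 passed the test, and Glrx alone did not overlap between tissues, beside 33.5% of all genes.

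The thioredoxin and peroxiredoxin genes were mostly even, with Srxn1 as the exception in size. Txn1, the cytosolic thioredoxin, had 12596 and 12838 in colonic lines and 11042 and 10104 in bone marrow lines. The colonic lines lay above by a small step, with a difference of 0.27 ± 0.09 (SE, unadjusted p = 0.0307, adjusted p = 0.714), or 1.2-fold. Srxn1, which repairs overoxidised peroxiredoxins, had 3345 and 3204 in colonic lines and 2320 and 1061 in bone marrow lines. Its difference was 1.05 ± 0.42 (SE, adjusted p = 0.848) and 0.49 without bone marrow replicate 2. All 4 probe sets of Srxn1 had both colonic lines above both bone marrow lines, with differences between 0.59 and 1.05. Txnrd1, the reductase that recharges thioredoxin, had 5146 and 8227 in colonic lines and 6095 and 5900 in bone marrow lines, a difference of 0.12 ± 0.25 (SE).

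Peroxiredoxins use thioredoxin to remove peroxides in different compartments. Prdx2, in the cytosol, had 8026 and 8261 in colonic lines and 7778 and 6521 in bone marrow lines, a difference of 0.19 ± 0.13 (SE) that was 0.066 without bone marrow replicate 2 and 0.32 when the first bone marrow line was left out. Prdx3, in mitochondria, had 4539 and 4657 in colonic lines and 5288 and 5662 in bone marrow lines, a difference of -0.25 ± 0.13 (SE), the reverse direction without overlap. Prdx4, in the endoplasmic reticulum and encoded on chromosome X, had 4225 and 8985 in colonic lines and 7830 and 6940 in bone marrow lines. The colonic lines were here the lowest and the highest of the 4, and colonic replicate 2 was also the line with high Xist. Of the 6 measured thioredoxin system genes 0 passed the test, and the median difference was 0.16. Without overlap 3 lay above and 1 below in colonic lines, beside 18.4% and 15.1% of all genes.

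Among the glutathione transferases, Gstp1 of the pi class was even over the 4 arrays, and genes of the alpha, mu and theta classes were not. It had 8337 and 9724 in colonic lines and 9041 and 8076 in bone marrow lines, a difference of 0.08 ± 0.13 (SE). Gsto1, an omega class enzyme that also reduces dehydroascorbate, had 11336 and 7870 in colonic lines and 8243 and 6629 in bone marrow lines, a difference of 0.35 ± 0.22 (SE) that ranged from 0.090 without colonic replicate 1 to 0.62 without colonic replicate 2. Gstt1, of the theta class, had 32.6 and 141 in colonic lines and 367 and 1658 in bone marrow lines. All colonic values lay below, over a 50.9-fold range, and the lines of each tissue were also well apart. Its difference was -3.24 ± 0.97 (SE, 95% interval -5.81 to -0.67, unadjusted p = 0.0237, adjusted p = 0.676), and between -4.31 and -2.17 with any array left out. Gstt2, its neighbour on chromosome 10, had 452 and 69.1 in colonic lines and 71.5 and 51.3 in bone marrow lines, so that colonic replicate 1 alone stood high. The difference of Gstt2 was 1.40 ± 0.88 (SE, adjusted p = 0.976) and 0.15 without colonic replicate 1.

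Gsta4, which conjugates the lipid peroxidation product hydroxynonenal, had 783 and 2946 in colonic lines and 3664 and 218 in bone marrow lines. The bone marrow lines were the highest and the lowest, with a difference of 0.73 ± 1.49 (SE). The mu class genes Gstm1, Gstm2 and Gstm5, all on chromosome 3, were each highest in bone marrow replicate 1. Gstm2 had 3686 and 4217 in colonic lines and 5206 and 908 in bone marrow lines, and Gstm5 had 2595 and 1649 against 2601 and 889. Gstm1 had 1876 and 4333 in colonic lines and 4885 and 1917 in bone marrow lines, and its 4 probe sets all gave differences between -0.18 and -0.04. Related mu class transcripts can share probe letters, so their probe sets may not be fully separate. Of the 8 transferases 0 passed the test, and the median difference was 0.40. Between tissues 7 of them overlapped, and over all genes 33.5% did not overlap.

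The microsomal transferases, membrane enzymes of another protein family, had 0 of 3 genes past the test. Mgst3 had 1199 and 389 in colonic lines and 2615 and 1564 in bone marrow lines. Both colonic values lay below, with a difference of -1.54 ± 0.64 (SE, adjusted p = 0.864) and -0.75 without colonic replicate 2. Mgst1 had 1331 and 2432 in colonic lines and 123 and 2910 in bone marrow lines, so that bone marrow replicate 1 alone was low. Its difference of 1.52 ± 1.52 (SE) turned to -0.69 without that array. Mgst2, which can also make leukotriene C4, had 171 and 537 in colonic lines and 185 and 285 in bone marrow lines.

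Glutathione peroxidases split in the same way into even and uneven genes. Gpx4, which reduces lipid peroxides in membranes and guards against ferroptosis, had 11595 and 12754 in colonic lines and 12656 and 11973 in bone marrow lines, a difference of -0.02 ± 0.09 (SE). Gpx1, the cytosolic enzyme, had 10388 and 8450 in colonic lines and 10039 and 7286 in bone marrow lines, a difference of 0.13 ± 0.20 (SE). Gpx3, the secreted plasma enzyme, had 3577 and 538 in colonic lines and 96.3 and 602 in bone marrow lines. Replicates 2 of the tissues were close and replicates 1 far apart, with a difference of 2.44 ± 1.26 (SE, adjusted p = 0.955) that was 1.09 with the first colonic line left out and 1.19 with the first bone marrow line left out. Gpx7, of the endoplasmic reticulum, had 1710 and 1908 in colonic lines and 1486 and 379 in bone marrow lines. Its difference of 1.25 ± 0.69 (SE, adjusted p = 0.965) was 0.28 without bone marrow replicate 2. Gpx8, of the same compartment, had 5999 and 5779 in colonic lines and 5570 and 3615 in bone marrow lines, a difference of 0.39 ± 0.24 (SE). Both Gpx7 and Gpx8 lay above in colonic lines without overlap, as did 18.4% of all genes. Of the 5 peroxidases 0 passed the test.

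Superoxide dismutases turn superoxide into hydrogen peroxide, which catalase then splits. Sod1, the cytosolic copper and zinc enzyme, had 10692 and 8818 in colonic lines and 11260 and 9456 in bone marrow lines. Its difference was -0.09 ± 0.15 (SE), and -0.10 in another bright probe set. A dimmer probe set of Sod1 had 528 and 414 against 693 and 758, a difference of -0.62 without overlap. Sod2, the mitochondrial manganese enzyme, had 4590 and 4219 in colonic lines and 3998 and 3917 in bone marrow lines, a difference of 0.15 ± 0.15 (SE). Sod3, the extracellular enzyme, had 170 and 4.93 in colonic lines and 973 and 37.6 in bone marrow lines. Replicate 1 was the higher line in each tissue. The range was 197-fold and rests on the value of 4.93, which lies below the filter on low values. The difference of -1.95 ± 1.81 (SE) was 0.19 without bone marrow replicate 1. Cat had 4635.5 and 4183 in colonic lines and 3326 and 3390 in bone marrow lines, with 2414 and 2270 against 1627 and 1408 in its second probe set. Colonic lines lay above in both probe sets, with a difference of 0.39 ± 0.16 (SE, adjusted p = 0.848) and 0.62 in the second. Of the 4 genes 0 passed the test.

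Metallothioneins differed between colonic lines far more than between tissues. Mt2 had 7302 and 118 in colonic lines and 2214 and 5981 in bone marrow lines, a 62-fold range. Mt1 had 8304 and 1924 in colonic lines and 4834 and 7349 in bone marrow lines, and its other, dim probe set had 61.6 and 14.6 against 29.6 and 167. All 3 probe sets were lowest in colonic replicate 2 and the 2 bright ones highest in colonic replicate 1. The probe set used for Mt1 is marked as one that can bind related transcripts. The difference between tissues was -0.57 ± 0.74 (SE) for Mt1 and -1.90 ± 1.99 (SE) for Mt2, and without colonic replicate 2 both turned, to 0.48 and 1.00. The ferritin heavy chain gene Fth1, which stores iron in a non-reactive form, had 13180 and 13517 in colonic lines and 14167 and 13069 in bone marrow lines, a difference of -0.03 ± 0.08 (SE).

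**Figure D3:**
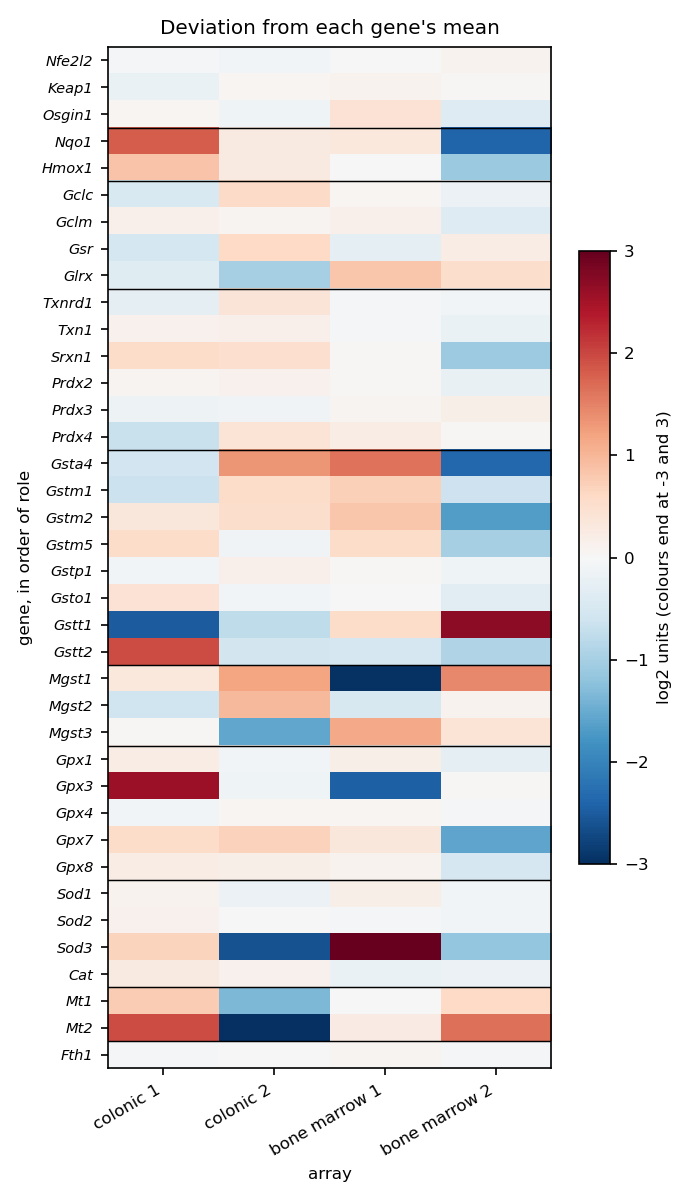
Deviation of each of the 38 genes from its own mean over the 4 arrays (log2 units), with colonic lines left of bone marrow lines and black lines between roles. Nqo1, Hmox1, Srxn1, Gsta4, Gstm2, Gstm5 and Gpx7 are lowest in bone marrow replicate 2, and Mt1 and Mt2 are lowest in colonic replicate 2.

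Spread between lines of the same tissue was wide. The lines of a tissue were at least 2-fold apart in 14 of the 38 genes for colon (36.8%, against 13.6% of all genes) and in 13 for bone marrow (34.2%, against 11%). In 30 of the 38 genes (78.9%) the larger of the within-tissue differences exceeded the difference between tissues, against 79.2% of all genes. The 8 others were Nfe2l2, Hmox1, Glrx, Txn1, Prdx3, Gstt1, Sod2 and Cat. A high share was favoured in advance, as the larger of 2 differences between single lines was set against a difference of means. The share of 78.9% was near that of the background. The whole range over the 4 arrays was within 1.5-fold in 13 of the 38 genes (34.2%), against 40% of all genes.

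**Figure D4:**
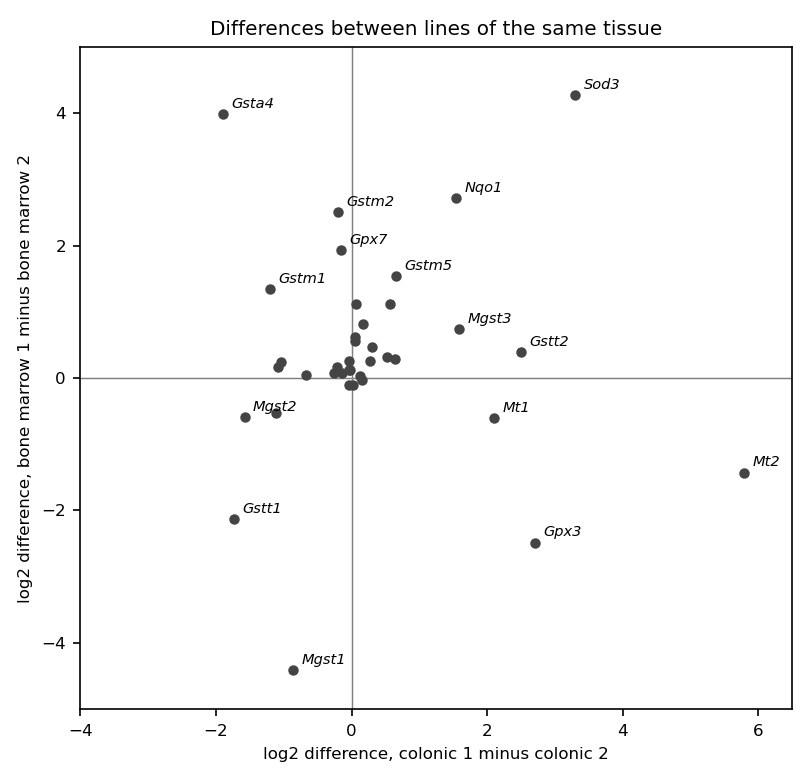
Log2 difference between the colonic lines (horizontal axis) and between the bone marrow lines (vertical axis), replicate 1 minus replicate 2, with 1 point for each of the 38 genes and names for those far from 0 on either axis. Mt2 (5.80) and Sod3 (3.30) lie far right, Sod3 (4.27) and Gsta4 (3.99) at the top, and Mgst1 (-4.42) at the bottom.

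Bone marrow replicate 2 had the lowest value of the 4 arrays in 18 of the 38 genes (47.4%), against 32.5% of all genes, and bone marrow replicate 1 in 3 (7.89%, against 18.5%). The lines with the lowest value in the remaining genes were colonic replicate 1 in 10 (26.3%, against 28.8% of all genes) and colonic replicate 2 in 7 (18.4%, against 20.1%). Bone marrow replicate 2 also had the lowest sums of the smooth muscle, macrophage, endothelial and stromal markers. Its adipocyte sum, 7986, was the highest of the 4 arrays, and its epithelial sum, 5332, lay above those of both colonic lines. The upper quartile of its intensities was the lowest, at 611 against 643 or more on the other arrays. The part of these in the low values was not tested.

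**Figure D5:**
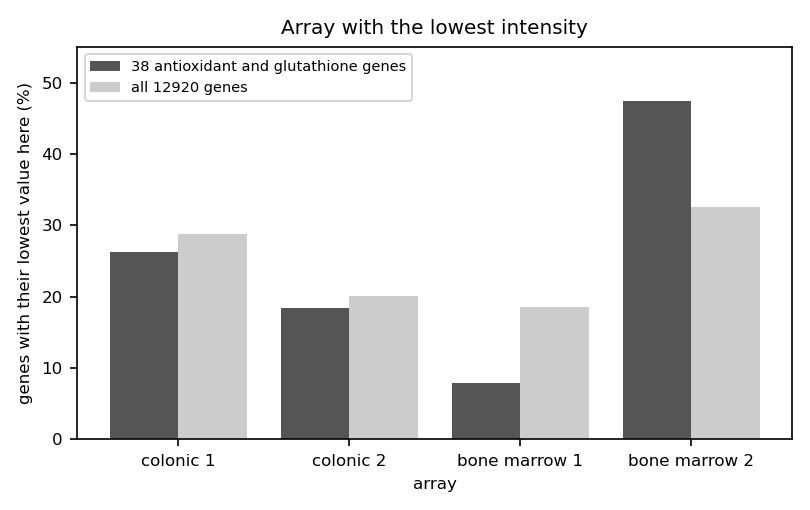
Share of genes (%) that have their lowest intensity on each array, with dark bars for the 38 antioxidant and glutathione genes and light bars for all 12920 genes, colonic lines left of bone marrow lines. Bone marrow replicate 2 holds 47.4% of the 38 genes and 32.5% of all genes.

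Other genes of the pathway were described from 6 lists of genes outside the 43. Of 9 tested NRF2 partners and repressors 0 passed the test in either direction (median difference 0.13). Bach1, a repressor that competes with NRF2 at its sites, had 1532 and 2316 in colonic lines and 2623 and 2455 in bone marrow lines, a difference of -0.43 ± 0.28 (SE). The related repressor gene Bach2 had 353 and 303 in colonic lines and 408 and 659 in bone marrow lines. Mafk, a small Maf partner of NRF2, had 958 and 594 in colonic lines and 557 and 450 in bone marrow lines. Sqstm1, which draws Keap1 into autophagy, had 5955 and 8581 in colonic lines and 6889 and 4409 in bone marrow lines.

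Glutathione synthesis, cystine import, breakdown and export had 13 tested genes, 0 past the test and a median difference of 0.00286. Slc3a2, the heavy chain of the cystine importer, had 3421 and 4567 in colonic lines and 5486 and 5649 in bone marrow lines, a difference of -0.49 ± 0.19 (SE, adjusted p = 0.845). Ggt7, a member of the gamma-glutamyltransferase family, had 325 and 153 in colonic lines and 89.4 and 85.5 in bone marrow lines, a difference of 1.23 ± 0.45 (SE, adjusted p = 0.801). Abcc4, a transporter that exports organic anions, had 1125 and 1744 against 1071 and 675, and Cth, which makes cysteine from cystathionine, had 781 and 618 against 820 and 2482, with colonic lines first. In the whole list 6 of the 13 genes did not overlap between tissues, 2 with colonic lines above and 4 below, beside 33.5% of all genes.

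The list for the supply of NADPH, which both glutathione and thioredoxin reductase use, had 6 tested genes and 0 past the test. Taldo1, the transaldolase of the pentose phosphate pathway, forms no NADPH itself. The gene Taldo1 had 5631 and 6765 in colonic lines and 2482 and 2306 in bone marrow lines. It was the gene of the 6 lists with the smallest adjusted p, with a difference of 1.36 ± 0.17 (SE, adjusted p = 0.151). Pgd, the second NADPH-forming enzyme of that pathway, had 8558 and 6627 in colonic lines and 5513 and 6207 in bone marrow lines, a difference of 0.36 ± 0.17 (SE). The malic enzyme gene Me1 had 5868 and 5723 in colonic lines and 5836 and 4089 in bone marrow lines, and the mitochondrial isocitrate dehydrogenase gene Idh2 had 1397 and 4995 against 3727 and 4833.

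Of 22 other transferases, peroxidases and thioredoxins tested, 0 passed the test and 8 (2 with colonic lines above and 6 below) did not overlap, near the 33.5% of all genes without overlap. Txnip, which binds and blocks reduced thioredoxin, had 6267 and 1449 in colonic lines and 284 and 98.5 in bone marrow lines, a difference of 4.05 ± 0.89 (SE, adjusted p = 0.462). That difference was wider than any among the 38 genes. Sesn1, a sestrin gene of the p53 response, had 530 and 1004 in colonic lines and 1478 and 1581 in bone marrow lines. The methionine sulfoxide reductase genes Msrb2 and Msrb3 had 710 and 337 against 324 and 203, and 6486 and 6910 against 8150 and 7354, colonic lines again first.

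Quinone, carbonyl, heme and conjugation enzymes had 9 tested genes and 0 past the test. Their summed intensity was 29452 and 27826 in colonic lines, 33992 in bone marrow replicate 1 and 18033 in bone marrow replicate 2, the line in which many of the 38 genes were lowest. Blvrb, of the biliverdin reductases, had 1946 and 1658 in colonic lines and 856 and 235 in bone marrow lines. Its difference was 1.96 ± 0.66 (SE, adjusted p = 0.748). Cbr3 had 3074 and 2895 in colonic lines and 3613 and 529 in bone marrow lines, and Akr1b8 had 4285 and 3919 against 4717 and 1881, both carbonyl-reducing enzymes low in bone marrow replicate 2. Ugdh, which makes the sugar donor for glucuronidation, had 6505 and 5207 in colonic lines and 6469 and 6970 in bone marrow lines.

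Metal handling genes had 9 tested genes and 0 past the test, with a median difference of -0.00281. The metal importer gene Slc39a14 had 2342 and 2007 in colonic lines and 3696 and 3209.5 in bone marrow lines, a difference of -0.66 ± 0.20 (SE, adjusted p = 0.682). Tfrc, the transferrin receptor, had 5358 and 4361 in colonic lines and 6202 and 8604 in bone marrow lines, a difference of -0.59 ± 0.22 (SE, adjusted p = 0.801). Slc30a1, a zinc exporter and classical MTF1 target, had 1625 and 458 in colonic lines and 901 and 1470 in bone marrow lines. Its lowest and highest arrays were those of Mt1 and Mt2. The iron exporter gene Slc40a1 had 127 and 844 in colonic lines and 95.9 and 95.6 in bone marrow lines.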

How the data were processed

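RNA of 2 colonic and 2 bone marrow MSC lines went through RiboAmp Plus amplification and biotin labelling before Affymetrix array hybridisation, 1 array per line, per the labels' protocols. Each deposited file gives 1 intensity per probe set, linear as judged from its range. How background was corrected, probes summarised and arrays scaled was not given in the sources used here. That scaling was kept, and 64 control probe sets were left out. Of 45101 probe sets, 34945 had 1 gene symbol in the platform annotation, 932 several and 9160 none. Values were taken as log2(intensity + 13.7), 0.25 of the table median, probe sets above the 40th percentile of mean log2 value (an intensity of 31.9) were kept, and the brightest stood for its gene. Standard errors and p-values came from limma 3.58.1 in R 4.3.3 (lmFit, eBayes with an intensity trend), two-sided, adjusted by Benjamini and Hochberg over 12920 genes, called at 0.05. Residual degrees of freedom were 2 and prior ones 2.53, and the code was tested on simulated data. An exact permutation test of 2 against 2 cannot go below 0.333, so none is printed. The number of arrays limits the precision. The p-values set each difference against the spread between these lines, which limma draws in part from other genes.

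The genes and lists were chosen with earlier results of these data known. All 38 genes are described by role. Those tested under each alternative had an unadjusted p below 0.05 or at least a 2-fold difference, were Nfe2l2, Keap1 or Nqo1, or were the brightest 2 of their role, 25 in all. Up to 4 genes of each further pathway list were named in order of p, and cell type markers were named outside that order. Tried instead were median centring or quantile normalization, a pseudocount of 1 or of the whole median, no filter or the 60th percentile, averaged or separate probe sets, eBayes robust or with no trend, a block for the replicate number, an adjusted p of 0.1, each array left out, and, added after seeing the data, no probe sets marked s or x.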

Additional observations from a re-analysis of the deposited data

How the results depend on the processing

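None of the 38 genes passed an adjusted p of 0.05 in limma under any alternative run, nor at 0.1, while 3 had an unadjusted p below 0.05. Over all genes the count of 0 became 13 after quantile normalization, 17 after median centring, 15 at a pseudocount of 1 and 15 when filtering from the 60th percentile, which left 36 of the 38 genes. It was 12 for averaged probe sets, 13 if no trend was fitted, 15 under robust eBayes, 49 at an adjusted p of 0.1, and between 0 and 33 with an array left out, the 33 without colonic replicate 1. The count of 3 genes was 5 with each probe set tested separately and between 2 and 8 with an array left out. With the replicate number as a block it was 9. The same-numbered lines share only a number in the labels, their deviations from the tissue means correlated with r = 0.106 over genes, and the block leaves 0 of the 38 past an adjusted p of 0.05. Genes without overlap, 13 of 38, numbered 24 to 28 with an array left out, as fewer arrays overlap less often, and the median difference of 0.13 ranged from -0.053 to 0.22. At least 2-fold apart were 9 to 13 genes with an array left out.

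Of 398 values of the 25 genes named by the rule under alternatives, 379 kept their direction and 19 turned. Changes to the filter, the trend, robust eBayes or the block cannot alter a fitted difference here. For a gene with 1 probe set past the filter, averaged or separate probe sets cannot alter it either. Leaving out probe sets marked s or x cannot where the brightest is unmarked. The values under such changes kept their direction in advance and say nothing about its stability. Keap1 was 0.18 with the mean of probe sets and 0.48 in its dim probe set, and Sod2 was -0.073 in one of its probe sets. With an array left out, the differences ranged from -0.26 to 0.00188 for Keap1, -0.40 to 0.64 for Gclc, -0.035 to 0.19 for Gstp1, -0.69 to 3.73 for Mgst1, -0.10 to 0.36 for Gpx1, -0.086 to 0.051 for Gpx4, -0.23 to 0.051 for Sod1, -4.08 to 0.19 for Sod3, -1.62 to 0.48 for Mt1, -4.80 to 1.00 for Mt2 and -0.086 to 0.030 for Fth1. The cause was not tested. A tissue left with 1 array takes its spread from the other. Genes near the floor, such as Gstt1 in colonic replicate 1 and Sod3, are understated by the pseudocount.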
